A study of Mus musculus with 16 samples.

Results

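The comparison set Head tissue against Tail tissue in mouse embryos that lack both Fuz and Gpr161, and asked which genes still mark the 2 ends of the body when both are lost. Its members are the 2 Head and the 2 Tail libraries titled Fuz:Gpr161 DKO (double knockout, written DKO from here on), 4 of the 16 libraries of the study. All were RNA sequencing libraries of embryos at the embryonic stage E10.5, with the treatment given as None. Head is the part above the third branchial arches and Tail the part below the forelimbs, so the trunk between them, with the forelimb level, lies in neither. The other libraries are 2 Head and 2 Tail libraries each of wild type (WT), Fuz KO and Gpr161 KO embryos, handled in the same way. Each library is bulk RNA of a whole body part, for which the labels give the cell type only as embryonic cells. Strain, alleles and litters are not named. Whether library 1 and library 2 of a group came from different embryos is not recorded, and the p-values therefore speak only of the spread between these libraries, which in the DKO may be technical.

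Position along the body axis is written in Hox genes, homeobox transcription factors that lie in 4 clusters and are switched on in order, so that genes at one end of a cluster mark the hindbrain and branchial arches and those at the other end mark the tail and hindlimb. Tissue in front of the hindbrain carries no Hox code and is marked by other factors, among them Otx2 and Six3. FUZ is a planar cell polarity effector needed to build cilia, through which Hedgehog signals are read, and GPR161 is a ciliary receptor that holds the Hedgehog pathway down.

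Head and Tail of the DKO differed in 1499 of 21284 genes tested, 7.04% of them, at an adjusted p under 0.05 (edgeR's quasi-likelihood test with Benjamini-Hochberg adjustment over all genes). Of these, 875 genes (4.11% of those tested) were higher in Head and 624 (2.93%) were higher in Tail. For all 1499 genes both Head libraries lay on one side of both Tail libraries. Because the test that chose these genes used the same libraries, this adds no support to the calls. Of the 1499, 608 differed by more than 2 on the log2 scale. With the library number as a block within each genotype, 3638 genes (17.1%) were called, 2028 higher in Head (9.53%) and 1610 higher in Tail (7.56%), and 1464 of the 1499 were among them. Counts of list members given below stand beside these shares, 4.11% and 2.93%, or 9.53% and 7.56% with the block. Where 1 library is left out, they stand beside the smaller counts over all genes that follow here. The count of 1499 rests on all 4 libraries. It was 604 without Head library 1, 893 without Head library 2, 908 without Tail library 1 and 571 without Tail library 2, where the single library left in a group is assumed to vary like the other groups.

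Both targeted genes were low at both ends of the DKO. Fuz stood at 1.22 and 1.89 CPM (counts scaled to the same library total) in Head libraries 1 and 2 and at 0.808 and 1.53 CPM in Tail libraries 1 and 2, against 5.17 to 7.84 CPM over the 4 WT libraries. Gpr161 stood at 3.49 and 5.44 CPM in Head and at 2.12 and 3.29 CPM in Tail, against 46.8 to 55.0 CPM in WT. Neither passed the test between Head and Tail DKO (edgeR adjusted p = 0.672 for Fuz and 0.331 for Gpr161; Gpr161 passed with the number block, adjusted p = 0.00359). Total counts ran from 42434144 to 53680317 in the DKO libraries. Features other than region also differed among them, and their part in the results was not tested. The summed level of 25 hypoxia and glycolysis genes was 24113 and 13813 CPM in Head and 23549.9 and 14799.7 CPM in Tail, so library 1 was the higher at both ends, and none of the 25 was called between Head and Tail (5 higher in Head and 2 higher in Tail with the number block). The summed level of 13 erythroid genes was 2688 and 6609 CPM in Head and 8996 and 9091 CPM in Tail, with none called in either direction (5 higher in Tail without Head library 2). All 4 DKO libraries held Y-linked transcripts and at most 1.22 CPM of Xist, whereas the WT libraries held 824 to 977 CPM of Xist, so sex and genotype cannot be told apart where DKO is set beside WT.

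From paralogue group 4 on, Hox genes were near absent from Head, while several genes of groups 1 to 3 were present at both ends, and every Hox gene that passed the test was higher in Tail. Of 38 Hox genes tested, 34 passed. Hoxd4 had no counts in any of the 16 libraries and was not tested. By position in the cluster, 5 of 8 genes of paralogue groups 1 to 3, all 3 of group 4, all 15 of groups 5 to 9 and 11 of 12 of groups 10 to 13 were called, against 2.93% of all genes. The 15 genes of groups 5 to 9 were called without each of the 4 libraries in turn as well, while groups 1 to 4 kept 7 of their 8 calls and groups 10 to 13 kept 10 or 11.

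Hoxc6, a thoracic-level gene, had no counts in either Head library and stood at 72.7 and 48.9 CPM in Tail libraries 1 and 2. Against a floor of 3 counts over the Head group, which covers counting error only, it was at least 1689-fold higher in Tail (edgeR adjusted p = 0.000153). Hoxb8, which marks the posterior trunk, was at 0 in both Head libraries and at 55.9 and 35.3 CPM in Tail, at least 1264-fold higher (adjusted p = 5.22e-05). Hoxc9, Hoxb7, Hoxc11, Hoxa6 and Hoxa13 were likewise at 0 in both Head libraries. Their levels in Tail libraries 1 and 2 were 47.5 and 39.7 CPM for Hoxc9, 25.5 and 30.1 CPM for Hoxb7, 10.3 and 11.4 CPM for Hoxc11, 7.04 and 8.28 CPM for Hoxa6, and 12.7 and 13.9 CPM for Hoxa13. Hoxa13, which marks the end of the body and the distal limb, was at least 376-fold higher in Tail. The antisense transcript Hoxa11os had no Head counts and 7.57 and 10.0 CPM in Tail, but since no source names the strand setting of the counting, its reads and those of Hoxa11 may not be separable. Over groups 5 to 9 no gene exceeded 0.283 CPM in any Head library, a level reached by Hoxa9, which stood at 93.7 and 94.7 CPM in Tail.

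At the front end of the clusters the regions came closer. Hoxa2, which patterns the second branchial arch and the hindbrain, stood at 10.6 and 9.61 CPM in Head and at 9.33 and 7.11 CPM in Tail. The Head values lay above the Tail values by less than the spread the model allows for (log2 0.30 ± 0.34 SE, edgeR adjusted p = 0.738). Hoxb1, which marks hindbrain rhombomere r4, was at 4.57 and 3.27 CPM in Head and at 14.0 and 8.87 CPM in Tail. Its ranges did not overlap, but it missed the threshold (log2 -1.54 ± 0.72, adjusted p = 0.289; 0.0349 with the number block). Hoxb2 was at 2.99 and 2.49 CPM against 8.498 and 5.33 CPM (log2 -1.33 ± 0.46, adjusted p = 0.118; 0.00273 with the block). Hoxd1, Hoxa3 and Hoxb3 were called, with Head libraries between 0.0473 and 3.23 CPM and Tail libraries between 6.501 and 15.7 CPM. For Hoxd3 and Hoxa4 the call did not hold with the number block (adjusted p = 0.0423 and 0.0034 without it, and 0.0994 and 0.158 with it), and Hoxd3 was also lost without each library in turn (0.130 to 0.270). Hoxb13 was at 0 in both Head libraries and at 0.831 and 0.803 CPM in Tail, and did not pass (adjusted p = 0.105), though it did with the block (0.000372) and by DESeq2. Hoxc13, at 0 and 0.0473 CPM in Head and 5.17 and 4.54 CPM in Tail, was not called without Head library 1 (0.114) or Head library 2 (0.0679).

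**Figure D1:**
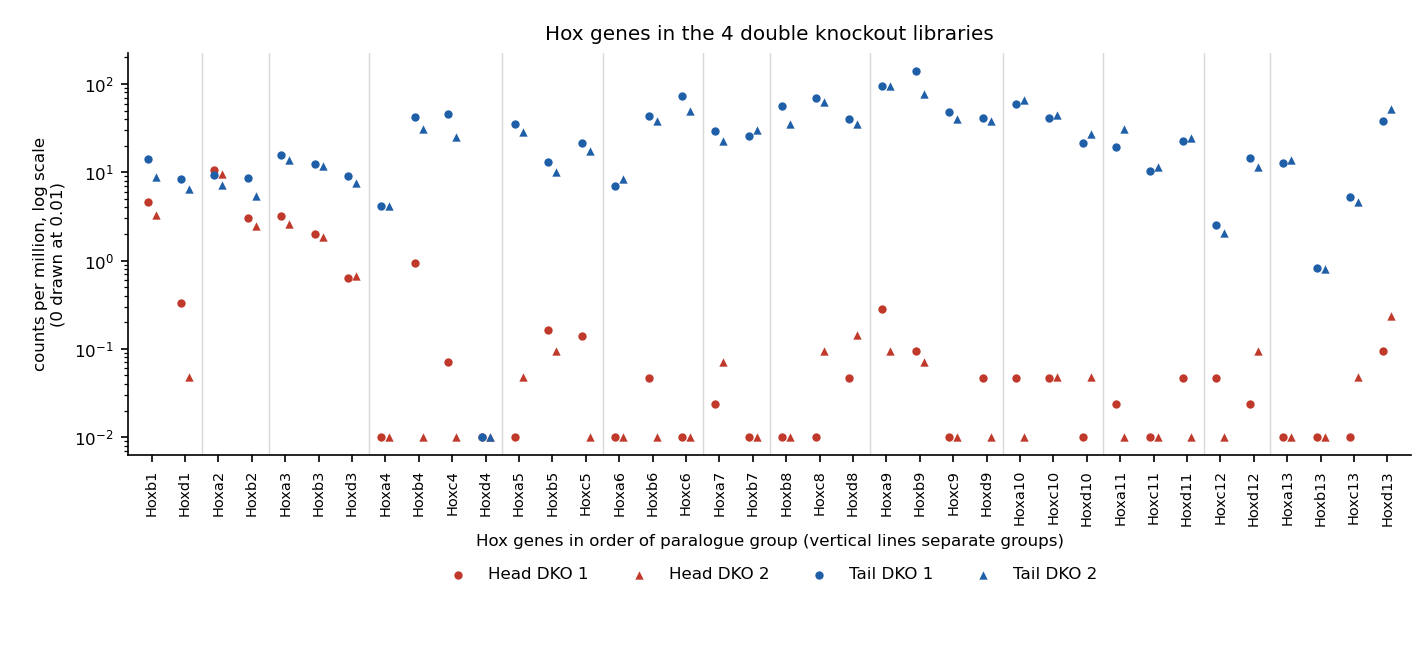
Levels of 38 Hox genes in CPM on a log scale (y axis, 0 drawn at the bottom) against paralogue group order (x axis), for Head (red) and Tail (blue) DKO libraries 1 (circles) and 2 (triangles). Head and Tail points come closest at Hoxa2 and are already apart at Hoxd1, Hoxa3 and Hoxb3. From group 4 on no Head library exceeds 0.942 CPM, and Hoxd4 has no counts at all. Heights of different genes are not comparable, since CPM is not divided by gene length.

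The stretch before a Hox start site is shown here because all 15 Hox genes tested of paralogue groups 5 to 9 were called higher in Tail. The sequences are the 250 bases before the gene's start from RefSeq, build GRCm38.p6, for Hoxb8 (chr11:96281655-96281904, plus strand) and T (chr17:8434173-8434422, plus strand), both higher in Tail, and for Six3 (chr17:85620584-85620833, plus strand), higher in Head. Capitals mark TTTATG on either strand (read as CATAAA on the other), a core that posterior Hox and Cdx proteins are known to bind. The motif was searched on both strands of all 250-base stretches.
Hoxb8: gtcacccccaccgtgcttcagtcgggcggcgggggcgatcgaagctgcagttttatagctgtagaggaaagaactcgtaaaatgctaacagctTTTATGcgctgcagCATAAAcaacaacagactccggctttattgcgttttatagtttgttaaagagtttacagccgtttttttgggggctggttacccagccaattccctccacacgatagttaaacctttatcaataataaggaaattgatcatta
T: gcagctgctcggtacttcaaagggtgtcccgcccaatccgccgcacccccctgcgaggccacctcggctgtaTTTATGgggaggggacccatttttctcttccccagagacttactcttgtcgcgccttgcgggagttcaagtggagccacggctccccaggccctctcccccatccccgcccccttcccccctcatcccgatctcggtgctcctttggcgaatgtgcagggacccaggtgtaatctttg
Six3: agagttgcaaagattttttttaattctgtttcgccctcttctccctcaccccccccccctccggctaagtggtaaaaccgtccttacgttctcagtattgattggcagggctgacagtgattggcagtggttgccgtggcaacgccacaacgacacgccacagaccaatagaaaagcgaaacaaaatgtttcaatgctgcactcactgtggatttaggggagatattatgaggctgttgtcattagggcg
Hoxb8 holds 2 matches, which start 157 and 143 bases before the gene's start, T holds 1 that starts 178 bases before it, and Six3 holds none. Of 22 Hox genes with an entry, 5 (22.7%) hold the motif, and of 22 genes of the forebrain and eye list 3 (13.6%) do, beside 12.4% of 27025 genes in the table. A match is only a run of letters in this window.

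At the other end of the body most forebrain and eye genes were higher in Head. Of 31 tested, 20 rose in Head and none in Tail, against 4.11% of all genes, with a median log2 difference of 3.43 beside -0.01 over all genes; without 1 library in turn, 16 to 20 were called. Nkx2-1, which marks the ventral forebrain and the thyroid, was at 13.8 and 5.94 CPM in Head and at 0 in both Tail libraries, at least 311-fold higher in Head (edgeR adjusted p = 0.00166). Head library 1 was the higher of the 2. In bulk tissue a smaller number of cells of a type and less RNA per cell cannot be told apart. Otx2, which marks forebrain and midbrain, was at 104 and 58.4 CPM in Head and at 0.462 and 0.0587 CPM in Tail. Library 1 was the higher in both regions, and the difference was log2 8.34 ± 0.70 (adjusted p = 0.000144). Otx1 was at 36.9 and 27.8 CPM against 0.323 and 0.0783 CPM. Six3, the eye field and anterior forebrain gene, was at 15.9 and 10.2 CPM in Head and at 0.0924 and 0 CPM in Tail (log2 8.16 ± 0.83, adjusted p = 0.000118).

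Other Head genes with almost no Tail counts were Nr2e1, a forebrain nuclear receptor, at 39.6 and 20.6 CPM against 0.0462 and 0.117 CPM, and Barhl2, a factor of diencephalic neurons, at 14.6 and 8.90 CPM against 0 and 0.0392 CPM. Rax, the earliest retinal gene, was lower in level, at 1.63 and 0.544 CPM in Head and 0.0462 and 0.0783 CPM in Tail, but its groups did not overlap (log2 4.04 ± 0.69, adjusted p = 0.00311). The processed transcript AI606473 was at 4.24 and 11.0 CPM in Head and at 0 and 0.0392 CPM in Tail, and its call was lost without each library in turn (adjusted p = 0.0971 to 0.255). Other genes of the anterior head did not pass. Pax6 was at 88.8 and 71.9 CPM in Head against 46.5 and 32.9 CPM in Tail (adjusted p = 0.132). Emx2 was lower in Head, at 8.53 and 8.59 CPM against 18.6 and 21.0 CPM (adjusted p = 0.199; 0.0356 with the number block). Lhx2 was at 26.1 and 18.3 CPM against 9.24 and 19.4 CPM, so its groups overlapped, and Alx1, a gene of the frontonasal mesenchyme, was at 31.1 and 32.5 CPM against 29.9 and 23.9 CPM. Pax6, Emx2 and Lhx2 are also used outside the forebrain, in the spinal cord, urogenital tissue and limb buds.

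Beside 4.11% of all genes called higher in Head and 2.93% in Tail, midbrain and isthmus genes followed the forebrain. Of 15 tested, 7 rose in Head and none in Tail (median log2 1.64), and 3 to 7 were called without 1 library in turn, the fewest without Tail library 2. En2, which marks the midbrain-hindbrain boundary, was at 94.1 and 75.7 CPM in Head and at 0.878 and 0.431 CPM in Tail, with Head above Tail by log2 7.03 ± 0.55 (edgeR adjusted p = 2.42e-05). Pax5, expressed at the same boundary, was at 55.4 and 40.6 CPM against 0.508 and 0.372 CPM. Tal2, a midbrain factor, was at 28.03 and 28.9 CPM against 0.739 and 0.587 CPM, and the 2 Head libraries lay close together. Helt, needed for midbrain GABAergic neurons, was at 1.55 and 1.87 CPM in Head and 0 in Tail, at least 53.9-fold higher, and was lost without Tail library 2 (adjusted p = 0.0534). Of 13 hindbrain and cranial motor genes, 4 rose in Head and 1 in Tail (1 or 2 and 1 without 1 library in turn). Cyp26c1, which degrades retinoic acid in the anterior hindbrain and head mesenchyme, was at 48.4 and 38.5 CPM against 0.647 and 0.372 CPM (log2 6.42 ± 0.85, adjusted p = 0.00133). Atoh1 of the rhombic lip was at 4.15 and 6.27 CPM against 0.716 and 0.666 CPM, a call lost without Tail library 1 (0.0633) or 2 (0.0966). Tlx3, at 4.71 and 5.30 CPM against 0.369 and 0 CPM, missed the threshold with the block (adjusted p = 0.0547 with it, 0.0167 without it) and without Head 1, Head 2 or Tail 2 (0.0613 to 0.0712). The 1 member higher in Tail was Tbx20, used in cranial motor neurons and also in lateral mesoderm and heart, at 3.65 and 1.47 CPM in Head and 30.3 and 27.6 CPM in Tail.

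**Figure D2:**
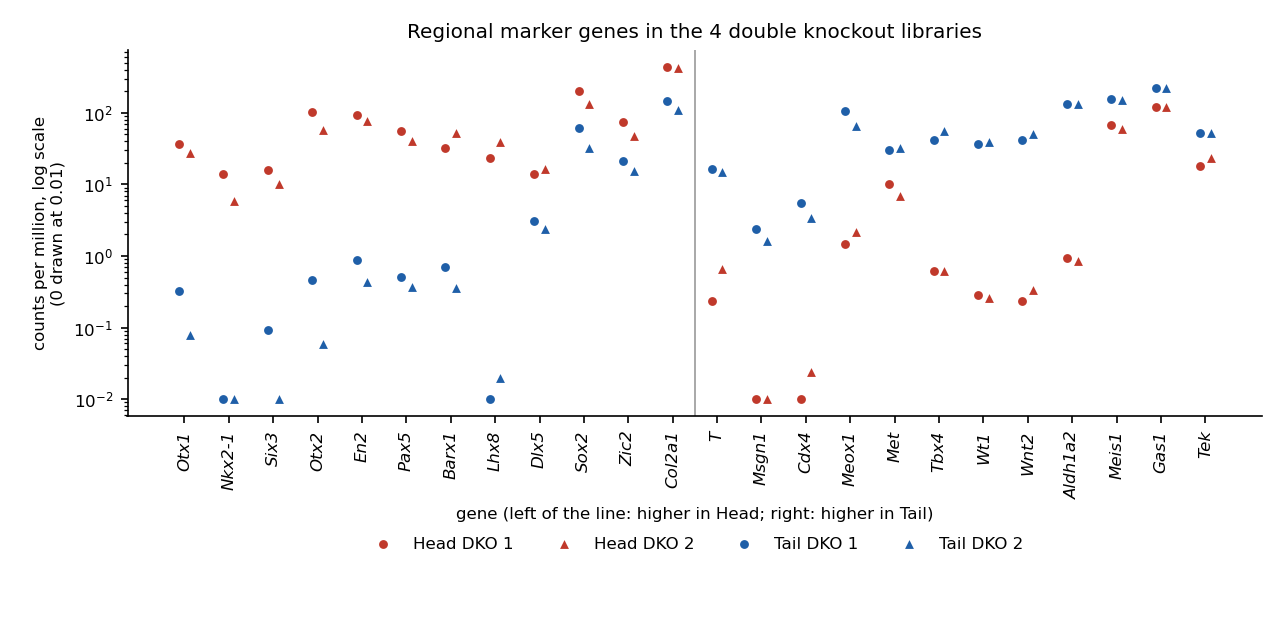
Levels of 24 named genes in CPM on a log scale (y axis, 0 drawn at the bottom) in Head (red) and Tail (blue) DKO libraries 1 (circles) and 2 (triangles). The 12 genes on the left are higher in Head and the 12 on the right higher in Tail, with no overlap of the 2 Head and 2 Tail points for any of them. Only called genes are drawn, so this lack of overlap follows largely from their choice. The gap runs from the narrow ones of Gas1 and Meis1 to genes at 0 in one region, such as Nkx2-1 and Msgn1.

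Many genes of the face and branchial arches rose in Head, with fewer near-absences in Tail. The shares over all genes were 4.11% called higher in Head and 2.93% in Tail. Of 31 branchial arch and craniofacial genes, 15 rose in Head and 2 in Tail (median log2 1.00); the counts were 12 and 0 without Head library 1, 11 and 1 without Head library 2 or Tail library 1, and 9 and 1 without Tail library 2. Lhx8, a factor of the first arch and palate, was at 23.2 and 38.7 CPM in Head and at 0 and 0.0196 CPM in Tail, where 1 read was counted in all. The ratio of Head to Tail was 2919, with a 95% counting interval of 523 to 115342 (edgeR adjusted p = 1.21e-05). Barx1, which marks the proximal arch and tooth field, was at 32.7 and 52.0 CPM against 0.693 and 0.352 CPM (log2 6.35 ± 0.65). Six2 was at 34.98 and 51.0 CPM against 5.87 and 5.89 CPM, and Dlx2 at 39.5 and 41.8 CPM against 8.41 and 5.38 CPM. For these 4 genes Head library 2 was the higher, the reverse of the order seen for the forebrain genes Nkx2-1, Otx2 and Six3. Of 18 cranial placode and ear genes, 9 rose in Head and 1 in Tail (5 to 7 and 0 without 1 library in turn), among them Eya1, at 51.9 and 59.8 CPM against 21.5 and 26.1 CPM, and Dlx5, at 13.9 and 16.4 CPM against 3.05 and 2.39 CPM. Dlx2, Dlx5 and several other genes stand in more than 1 list, so the lists are not independent of each other.

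Neural progenitor genes were higher in Head almost throughout the list. Of 14 neural progenitor and Notch genes, 12 rose in Head and none in Tail (median log2 1.76), against 4.11% and 2.93% of all genes. Fewer were called without any 1 library, as was so over all genes. Without Head library 1 the median was log2 1.63. Msi1, an RNA-binding protein of neural stem cells, was at 247 and 199.6 CPM in Head and at 93.4 and 77.4 CPM in Tail (log2 1.39 ± 0.16, edgeR adjusted p = 0.000209). Sox21 was at 57.1 and 43.1 CPM against 4.96 and 3.43 CPM. Sox2, the pan-neural progenitor factor, was at 202 and 133 CPM against 62.4 and 32.7 CPM, and Hes5, a Notch target, at 44.9 and 30.1 CPM against 9.26 and 5.07 CPM. Library 1 was the higher of each pair in both regions for these 4 genes, and the calls of Sox2 and Hes5 were lost without Head library 1 (adjusted p = 0.0846 and 0.0545) or Tail library 2 (0.0799 and 0.0899). Of 31 dorsal neural tube and roof plate genes, 15 rose in Head and none in Tail (median log2 1.40), falling to 3 to 9 without 1 library in turn, the fewest without Tail library 2. Zic2 and Zic5, zinc finger factors of the dorsal neural tube, were at 74.5 and 47.9 and at 38.8 and 27.8 CPM in Head. In Tail they were at 21.5 and 15.2 and at 10.4 and 9.83 CPM, so no Tail library reached a Head one. Ventral neural tube genes were split, with 4 of 24 higher in Head and 4 higher in Tail (2 or 3 in Head and 0 to 2 in Tail without 1 library in turn). Among them Mnx1, the motor neuron and notochord factor, was at 0 and 0.0473 CPM in Head and at 6.26 and 4.29 CPM in Tail (2 Head counts, ratio of Tail to Head 219.9 with a 95% counting interval of 60.5 to 1821; lost without Head library 1, adjusted p = 0.07). Of 18 neuronal genes only Gap43 and Syt1 rose in Head and Isl1 in Tail, although the list's median was log2 1.67. Gap43, a growth cone protein, was at 72.4 and 80.0 CPM against 37.6 and 35.8 CPM. Isl1 lost its call without each library in turn (adjusted p = 0.0883 to 0.250) and Syt1 without all but Head library 2, while 5 neuronal genes rose in Head with the number block.

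Several tail bud genes were present in Tail and close to absent in Head, while other members of the list were higher in Head. Among all genes, 2.93% were called higher in Tail and 4.11% in Head. Of 30 tail bud and segmentation clock genes, 8 were higher in Tail and 5 in Head (median log2 -0.17; 4 and 3 without Head library 1 or Head library 2, 6 and 3 without Tail library 1, 6 and 0 without Tail library 2). T (brachyury), which marks the primitive streak, tail bud and notochord, was at 0.236 and 0.663 CPM in Head and 16.5 and 14.7 CPM in Tail (log2 -5.11 ± 0.64, edgeR adjusted p = 0.000716). Msgn1, a factor of presomitic mesoderm, had no Head counts and 2.38 and 1.64 CPM in Tail, at least 55.9-fold higher there. Hes7, the oscillator of the segmentation clock, was at 0.165 and 0.0473 CPM against 3.00 and 1.84 CPM. Cdx4 and Cdx2, the caudal homeobox genes upstream of posterior Hox genes, were at 5.54 and 3.41 and at 6.605 and 5.62 CPM in Tail. Cdx2 had no Head counts (at least 171-fold higher in Tail) and Cdx4 had 1 (ratio 372, 95% counting interval 66.3 to 14712). The call of Cdx2 was lost without Head library 1 (adjusted p = 0.090) or 2 (0.0728), and that of Cdx4 without Head library 1 (0.0608). The 5 members higher in Head, named after their values were seen, were Lfng, Nrarp, Wnt3a, Fgf8 and Fgf17, which work in Notch, Wnt and FGF signaling in the brain as well as in the tail bud.

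Somite genes that passed the test were higher in Tail, with 1 exception. The shares over all genes were 2.93% in Tail and 4.11% in Head. Of 20 somite, dermomyotome and myogenic genes, 9 rose in Tail and 1 in Head (median log2 -1.97; 6 and 0 without Head library 1, 6 and 1 without Head library 2, 8 without either Tail library). Meox1, a somite homeobox gene, was at 1.46 and 2.18 CPM in Head and at 106 and 66.2 CPM in Tail (log2 -5.56 ± 0.29, edgeR adjusted p = 3.32e-07). Its relative Meox2 was at 0.942 and 0.757 CPM against 21.1 and 25.2 CPM. Met, the receptor of migrating muscle precursors, was at 10.2 and 6.82 CPM against 30.1 and 32.3 CPM, and Des, a muscle filament gene, at 7.77 and 8.33 CPM against 44.3 and 36.5 CPM. Myod1, the myogenic switch gene, was low in both, at 0.0942 and 0.189 CPM against 0.369 and 0.548 CPM, and did not pass (adjusted p = 0.428). Pax3, which marks dermomyotome and dorsal neural tube, was level, at 36.8 and 36.4 CPM in Head and 39.7 and 34.01 CPM in Tail, with an overlap of the groups (log2 -0.01 ± 0.15, adjusted p = 0.99).

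Of 24 limb bud genes, 7 rose in Tail and 4 in Head, with a median log2 of -0.11 (3 and 3 without Head library 1, 4 and 4 without Head library 2, 4 and 3 without Tail library 1, 4 and 0 without Tail library 2). Tbx4, the hindlimb gene, was at 0.612 and 0.615 CPM in Head and 42.1 and 55.0 CPM in Tail (log2 -6.30 ± 0.31, edgeR adjusted p = 1.72e-07). Pitx1, upstream of Tbx4 in the hindlimb and also expressed in the first arch, was at 37.2 and 49.7 CPM against 100.5 and 148 CPM, a smaller difference of log2 -1.51 ± 0.24. Tbx5, the forelimb and heart gene, was at 0.188 and 0.0237 CPM in Head and at 6.24 and 5.95 CPM in Tail, a call lost with the block (adjusted p = 0.0227 without it, 0.0574 with it) and without each library in turn (0.0703 to 0.169). Tbx2 was higher in Head, at 77.3 and 93.03 CPM against 21.2 and 19.8 CPM, and was lost without Tail library 2 (0.0518). Among 22 genes of intermediate mesoderm, kidney and gonad, 7 rose in Tail and 2 in Head, and 5 or 6 and 2 without 1 library in turn. Wt1, which marks nephrogenic mesoderm and coelomic lining, was at 0.283 and 0.260 CPM against 37.2 and 39.6 CPM (log2 -7.13 ± 0.95, adjusted p = 0.00133). Tcf21 was at 1.88 and 0.757 CPM against 11.2 and 15.0 CPM. The 2 higher in Head were Six2 and Eya1, kidney progenitor genes that are also head mesenchyme and placode genes. Beside the limb and kidney lists, the shares over all genes were 2.93% in Tail and 4.11% in Head.

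Of 23 gut endoderm and liver genes tested out of 25, 8 rose in Tail and 2 in Head (3 and 0 without Head library 1, 3 and 2 without Head library 2, 5 and 1 without Tail library 1, 4 and 0 without Tail library 2). Afp, the fetal liver and yolk sac protein, was at 0.0471 and 0.0947 CPM in Head and at 10.3 and 3.37 CPM in Tail, with Tail library 1 the higher, a call lost without Head library 1 (edgeR adjusted p = 0.0578). Pou5f1, a germ cell marker at this age, was at 0 in Head and at 0.462 and 0.470 CPM in Tail, at least 13.2-fold higher. It was the only one of 11 primordial germ cell genes tested to pass, and it was lost without each library in turn (0.0539 to 0.126; 3 of the 11 passed with the number block). Endothelial genes rose in Tail in 5 of 15 (2 to 4 without 1 library in turn, 10 with the number block) and in Head in none. Tek, the angiopoietin receptor, was at 17.9 and 23.7 CPM against 51.6 and 52.1 CPM (log2 -1.32 ± 0.19, adjusted p = 0.00118). The summed level of 22 cardiomyocyte genes was 46.9 and 12.8 CPM in Head and 101 and 108 CPM in Tail. Only Tnni1, at 2.54 and 0.710 CPM in Head and 21.1 and 24.5 CPM in Tail, was called (adjusted p = 0.0226; 0.0711 with the number block and 0.0667 to 0.156 without 1 library in turn), and it is also expressed in skeletal muscle. None of 12 macrophage genes or of 9 pigment cell genes was called (2 and 1 with the number block). Over all genes 4.11% were called higher in Head and 2.93% in Tail, or 9.53% and 7.56% with the number block. The cardiomyocyte, macrophage and pigment cell counts lie near these shares.

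**Figure D3:**
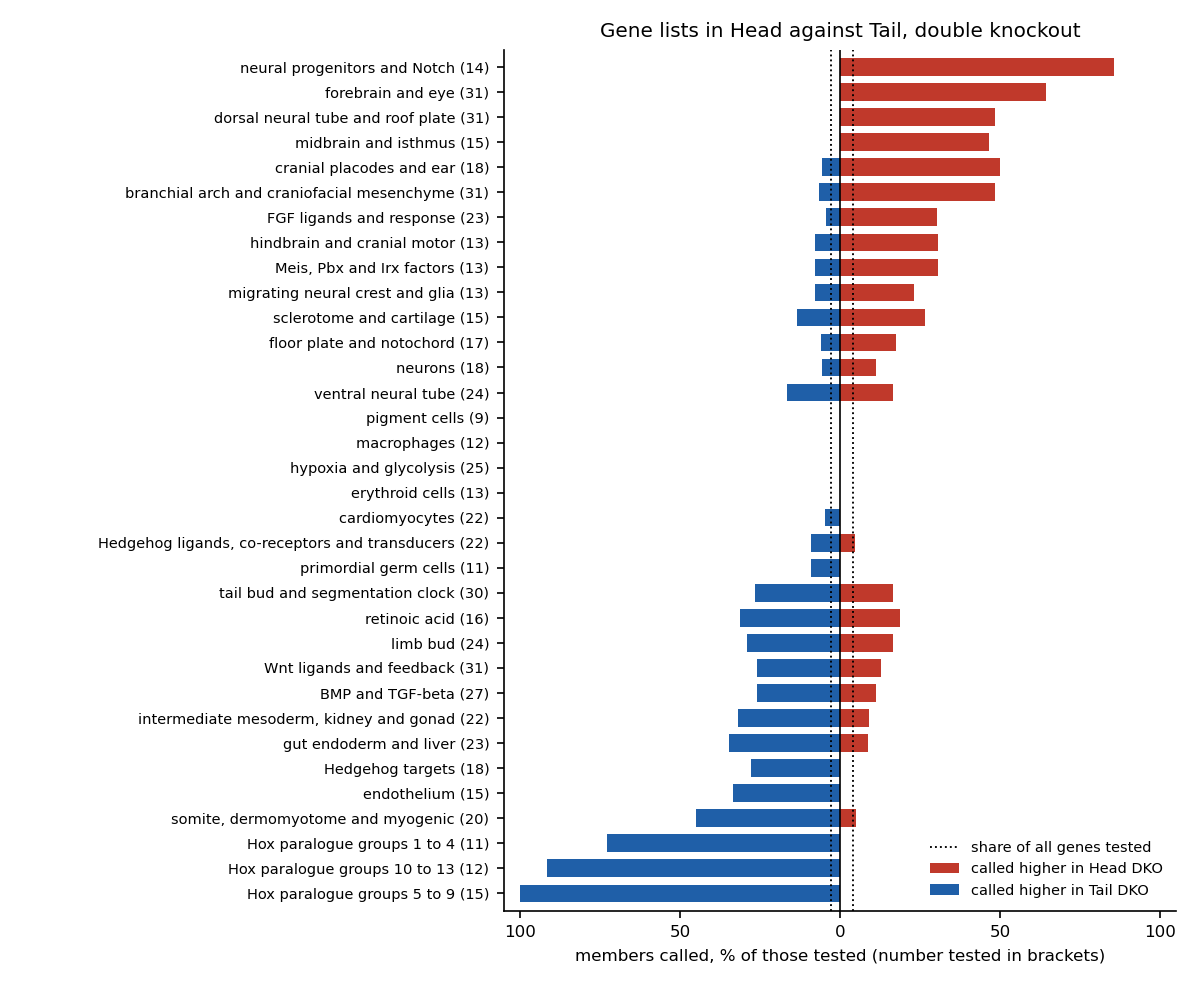
Share of the tested members of each gene list (numbers in brackets, y axis) called higher in Head (red, to the right) or in Tail (blue, to the left) of the DKO, in percent (x axis); dotted lines mark the 4.11% and 2.93% of all genes called in each direction. Neural progenitor, forebrain and dorsal neural tube lists lie fully on the Head side, the Hox lists fully on the Tail side, and the hypoxia, erythroid, macrophage and pigment lists hold no call.

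Secreted signals were divided between the ends, beside 2.93% of all genes called higher in Tail and 4.11% in Head. Aldh1a2, which makes retinoic acid in trunk mesoderm, was at 0.942 and 0.852 CPM in Head and at 134 and 132 CPM in Tail (log2 -7.21 ± 0.57, edgeR adjusted p = 4.32e-05). With Cyp26c1, which degrades retinoic acid, high in Head, the enzyme pair lay on opposite sides. Of 16 retinoic acid genes, 5 rose in Tail and 3 in Head (2 and 3 without Head library 1, 3 and 3 without Head library 2, 4 and 2 without Tail library 1, 3 and 2 without Tail library 2), among them Rdh10, at 16.5 and 14.5 CPM against 35.1 and 33.2 CPM, and the retinoid-binding gene Crabp1, at 564 and 616 CPM against 244 and 235 CPM. Cyp26a1, the tail bud and head enzyme of the same family, was at 20.6 and 22.8 CPM against 7.97 and 5.27 CPM and did not pass (adjusted p = 0.262). Of 31 Wnt ligand and feedback genes, 8 rose in Tail and 4 in Head (5 and 1, 5 and 2, 6 and 2, and 6 and 1 without Head 1, Head 2, Tail 1 and Tail 2). Wnt2, a ligand of lateral mesoderm, was at 0.236 and 0.331 CPM in Head and at 41.9 and 50.8 CPM in Tail, and Wnt8b, a ligand of the forebrain, at 8.32 and 4.59 CPM against 0.393 and 0.196 CPM. Of 27 BMP and TGF-beta genes, 7 rose in Tail and 3 in Head (4 and 1 without any 1 library). Grem1, a BMP antagonist of the limb, was at 2.36 and 3.08 CPM against 15.1 and 15.7 CPM. Tgfb2 was at 10.7 and 11.1 CPM against 39.9 and 33.5 CPM (log2 -1.75 ± 0.22, adjusted p = 0.000406).

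All genes had a called share of 4.11% in Head and 2.93% in Tail. FGF ligands and the genes that answer to them leaned to Head, with a median log2 of 0.38. Of 23 tested, 7 rose in Head and 1 in Tail (4 and 0 without Head library 1, 7 and 1 without Head library 2, 6 and 0 without Tail library 1, 1 and 1 without Tail library 2; 12 and 2 with the number block). Fgf8, the ligand of the isthmus, arches, limb ridge and tail bud, was at 27.2 and 24.1 CPM in Head and at 8.41 and 8.09 CPM in Tail (log2 1.64 ± 0.32, edgeR adjusted p = 0.00661; lost without Tail library 2, 0.0771). Fgf17, a ligand expressed with it, was at 20.4 and 22.9 CPM against 3.05 and 3.37 CPM, a call lost without Tail library 1 (0.0826) or 2 (0.0966). Il17rd (Sef), a feedback inhibitor that FGF signaling switches on, was at 171 and 145 CPM against 65.4 and 71.0 CPM (log2 1.21 ± 0.14, adjusted p = 0.00016). Spry2, another feedback inhibitor, was at 39.7 and 31.1 CPM against 17.6 and 16.5 CPM, lost without Head library 1 (0.0658) or Tail library 2 (0.0648). Etv5, a target transcription factor, was at 61.9 and 64.0 CPM against 40.9 and 38.0 CPM, lost without Tail library 2 (0.0775). The WT values were as follows. Fgf8 was at 13.5 and 16.3 CPM in Head against 22.9 and 15.3 CPM in Tail of WT, and Il17rd at 97.01 and 106 CPM against 99.4 and 98.2 CPM, so the WT groups overlapped for both. Fgf17 was at 8.64 and 12.8 CPM in Head and 4.86 and 8.83 CPM in Tail of WT, with overlap and a higher mean in Head, as in DKO. By edgeR without the block, none of the 23 genes differed between DKO and WT in its regional difference. With the block 2 did, both shifted toward Head in DKO, beside 0.0658% of all genes. In WT, 1 of the 23 genes was called higher in Head and 3 higher in Tail, against 2.02% and 1.74% of all genes.

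Hedgehog targets leaned to Tail, but on calls that did not last when a library was left out. Of 18 targets tested, 5 rose in Tail and none in Head (median log2 -0.39), beside 2.93% and 4.11% of all genes. With the number block 5 rose in Tail and 2 in Head, beside 7.56% and 9.53% of all genes. Gli1, the most direct readout of the pathway, was at 24.9 and 20.3 CPM in Head and 40.0 and 35.4 CPM in Tail, with both Head libraries below both Tail ones (log2 -0.74 ± 0.18, edgeR adjusted p = 0.0266; 0.0608 to 0.199 without 1 library). Hhip, a Hedgehog-binding inhibitor, was at 11.4 and 5.68 CPM against 28.7 and 24.7 CPM (log2 -1.64 ± 0.34, adjusted p = 0.00974; lost without Head library 2, 0.0748, or Tail library 1, 0.0605). Ptch1, the receptor and itself a target, was at 199 and 119 CPM in Head and 184 and 136 CPM in Tail. Its groups overlapped, and library 1 was the higher in both (log2 -0.01 ± 0.26, adjusted p = 0.996). The other called targets were mesenchymal factors. Foxf1, of the visceral mesoderm, was at 3.86 and 6.79 CPM against 26.8 and 25.0 CPM, Foxl1 at 0.754 and 0.568 CPM against 3.58 and 1.96 CPM, and Nkx3-2, of the sclerotome, at 0.707 and 0.568 CPM against 2.45 and 2.62 CPM. Each lost its call without at least 3 of the 4 libraries in turn, and Foxf1 also with the block (adjusted p = 0.0903). Shh, the ligand of notochord and floor plate, was at 6.93 and 7.53 CPM against 5.63 and 7.99 CPM, and Foxa2, which marks the floor plate, at 1.41 and 1.61 CPM against 0.924 and 1.21 CPM. Neither passed (adjusted p = 0.945 and 0.598). Of 22 Hedgehog ligand, co-receptor and transducer genes, Boc rose in Head and Gas1 and Ihh in Tail. Over all genes the shares called were 4.11% and 2.93%, so the Head count lies near its share. With the number block 8 rose in Head and 2 in Tail, beside 9.53% and 7.56% of all genes, so there the Tail count lies near its share. Ihh lost its call without each library in turn (adjusted p = 0.107 to 0.247), and Boc without Head library 1 (0.269) or Tail library 2 (0.273). Gas1, a co-receptor, was at 121 and 122 CPM against 219 and 224 CPM (log2 -0.87 ± 0.16, adjusted p = 0.00555; lost without Head library 1, 0.0577). None of the 18 targets was called between Head and Tail in WT (4 higher in Head and 1 in Tail with the number block). By edgeR without the block, none of the 18 differed between DKO and WT in its regional difference, and 1 did with it. Counts pooled over the WT libraries were higher in Tail for Foxf1 (2.65-fold), Nkx3-2 (2.91-fold), Hhip (1.36-fold) and Gli1 (1.05-fold). For Foxl1 they were higher in Head (1.94-fold).

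**Figure D4:**
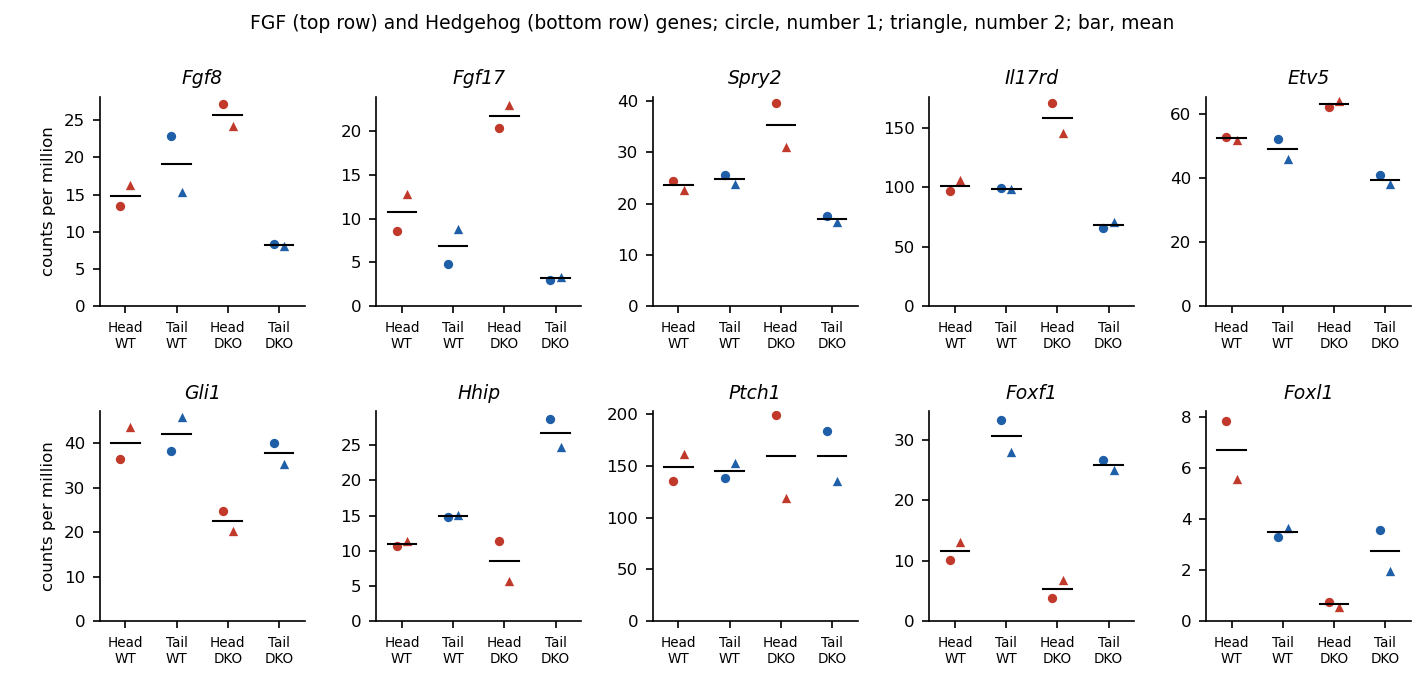
CPM (y axes, each from 0) of 5 FGF genes (top) and 5 Hedgehog genes (bottom) in Head (red) and Tail (blue) libraries of WT and DKO; circles are library 1, triangles library 2 and bars the mean of the 2. Head DKO lies above Tail DKO for all 5 FGF genes and below it for Gli1, Hhip, Foxf1 and Foxl1, while Ptch1 overlaps. All but Ptch1 were called in these libraries, so their order follows from their choice. Of 23 FGF genes, 7 were called higher in Head and 1 in Tail.

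The regional calls of DKO and WT were then set side by side. In WT, 802 genes (3.77%) were called between Head and Tail, 431 higher in Head (2.02%) and 371 in Tail (1.74%). Called in both genotypes were 658 genes, 43.9% of the DKO calls and 82.0% of the WT calls, and all 658 had the same direction. Of the 841 called in DKO and not in WT, 812 had the same sign in WT. Across genes, which are not independent replicates, the Head minus Tail differences of mean log2 CPM in DKO and WT had a Pearson r of 0.744. Between DKO library pair 1 and pair 2 it was 0.682. The second value uses single libraries and the first means of 2, so the values cannot be compared with each other. Both were computed over all 21284 genes and are descriptions.

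**Figure D5:**
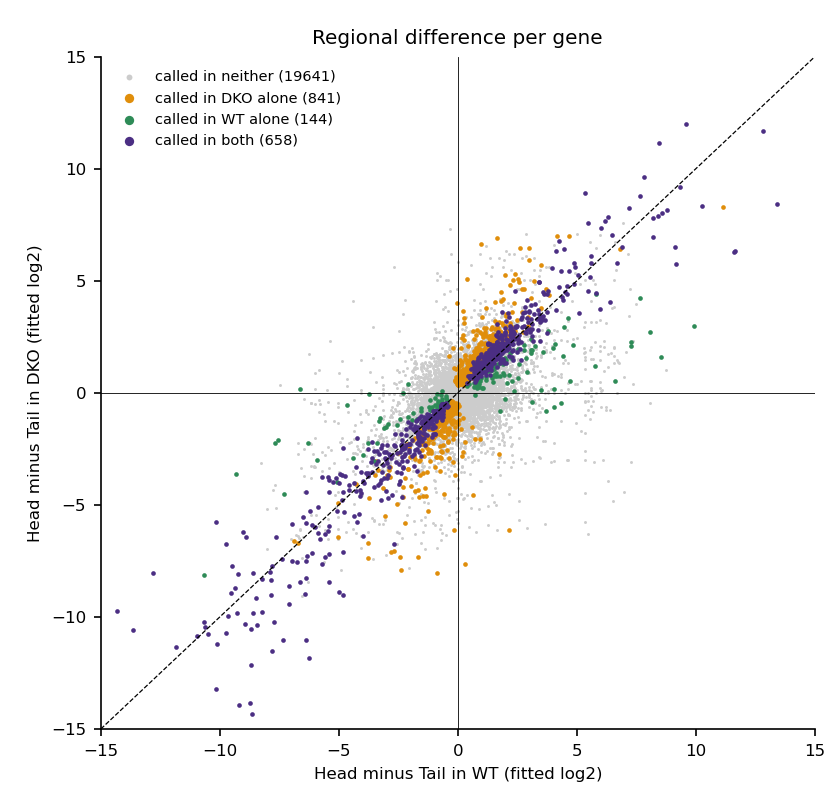
Fitted Head minus Tail difference of each gene, on the log2 scale, in DKO (y axis) against WT (x axis), with the line of equality dashed; colors mark the 658 genes called in both, the 841 called in DKO alone and the 144 called in WT alone. Genes called in both have the same sign on both axes. The most extreme values belong to genes with few or no counts in one region and depend on the model's prior count.

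A difference between the regional differences was tested directly, and no gene passed for DKO against WT (0 of 21284 by edgeR, 692 at an unadjusted p under 0.05; DESeq2 called 11, 0.057% of those it tested). With the number block, 19 genes (0.0893%) passed, 14 (0.0658%) with a Head minus Tail difference shifted toward Head in DKO and 5 (0.0235%) toward Tail. Among the 14 were Sall1, Igdcc3, Heg1, Sox13, Sall4, Mecom, Smoc1, Spry2, Il17rd, Zbtb16, Celsr1, Pcdh8 and Crym, and the 5 were Lox, Foxl1, Trpm1, Tgfb2 and Nrk. For Il17rd the shift was log2 1.17 ± 0.16 (adjusted p = 0.0175 with the block, 0.409 without it, 0.00121 by DESeq2), and for Spry2 it was 1.11 ± 0.16 (0.0175 with the block). For Fgf8, which did not pass by edgeR, it was 2.00 ± 0.44 by edgeR, with an adjusted p of 1.00 (0.120 with the block, 0.0310 by DESeq2). Celsr1, a planar cell polarity cadherin, was at 81.8 and 77.8 CPM in Head DKO and 42.5 and 32.1 CPM in Tail DKO. In WT it was at 63.3 and 66.9 CPM in Head and 64.5 and 82.7 CPM in Tail, so its WT groups overlapped and its DKO groups did not (shift log2 1.28 ± 0.14, adjusted p = 0.00557 with the block). In the other direction, Foxl1 of WT was at 7.87 and 5.58 CPM in Head against 3.30 and 3.66 CPM in Tail, the reverse order of the DKO (shift log2 -2.96 ± 0.33, adjusted p = 0.00557 with the block). Lox, a collagen cross-linking enzyme, was at 9.28 and 2.93 CPM in Head DKO and 12.0 and 4.11 CPM in Tail DKO, with overlap, but in WT it read 11.6 and 16.1 CPM in Head and 1.68 and 1.51 CPM in Tail.

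Against the single mutants, 0 genes passed for DKO against Fuz KO (433 at an unadjusted p under 0.05, DESeq2 0, 3 with the number block). For DKO against Gpr161 KO, 57 genes (0.268%) passed, 18 (0.0846%) shifted toward Head and 39 (0.183%) toward Tail in DKO, and 503 (2.36%) passed with the block, 53 of the 57 among them. The count of 57 fell to 20, 13, 11 and 12 without Head DKO 1, Head DKO 2, Tail DKO 1 and Tail DKO 2, and to 18 without Tail Gpr161 KO 1 or Tail Gpr161 KO 2, 36 without Head Gpr161 KO 1. Fgf17 was shifted toward Head by log2 5.41 ± 0.76 (edgeR adjusted p = 0.0148) and Il17rd by 1.89 ± 0.19 (0.00149). Among the genes shifted toward Tail were the cardiac genes Myl4, Myh6 and Myl7, whose summed list stood at 2872 and 611 CPM in the Head libraries of Gpr161 KO against 46.9 and 12.8 CPM in those of the DKO. Their part in the other shifts was not tested. The tests against WT, Fuz KO and Gpr161 KO share the 4 DKO libraries.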

How the data were processed

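Poly-A selected RNA of 16 libraries was sequenced, and the deposited values are raw read counts per gene identifier, 1 file per library, as deposited by the authors. Per the submitters' processing notes the tools were featureCounts 1.6.0 and HTSeq, STAR 2.7.1a, StringTie 2.0.4, Trimmomatic, Picard 2.20.4 and FastQC, on the build GRCm39. Which tool counted the reads, and with which strand setting, is not stated. Each library holds 39062489 to 53680317 counts over 54838 identifiers, of which 54809 matched a gene name.

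Counts were tested with edgeR 4.0.16 (R 4.3.3, limma 3.58.1) by quasi-likelihood on all 8 groups together, after TMM scaling and edgeR's expression filter (21284 genes), with 8 residual degrees of freedom and Benjamini-Hochberg adjustment over all genes. CPM values (counts scaled to a common library total) use the library totals of the genes kept by the filter, adjusted by the TMM factors. Fold bounds for genes at 0 use 3 counts over the group, and ratios with 1 to 3 counts have 95% intervals; both cover counting error only. The genotype differences are interaction terms.

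The members, gene lists and tests were chosen with earlier results of these data known. Genes are named by these rules: a fixed set, all Hox genes, the 8 largest called differences per direction with a mean of at least 5 CPM, up to 4 called members of each list by adjusted p, and the largest interaction terms. Names outside these rules are given as chosen after their values were seen, and some genes that the rules name are not reported here.

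Library numbers are shared by Head and Tail in the labels. The difference of library 1 from library 2 correlated between Head and Tail across genes by 0.282 in DKO, 0.133 in WT, 0.437 in Fuz KO and 0.196 in Gpr161 KO, over 0.1 in each, and the numbers were therefore taken to pair the libraries within a genotype. No label states this pairing, and the same correlation between different genotypes ran from -0.0787 to 0.302, above the value of DKO, so the pairing is a hint from the data. Alternatives were this block, DESeq2 1.42.0, RLE scaling, other filters, fits on the compared groups only, fits without haemoglobin and mitochondrial genes, and leaving out libraries. On simulated counts (20496 genes), Head against Tail DKO recovered 36%, 62%, 92% and 94% of changes of log2 1, 2, 3 and 4, with 7 false calls. The difference between DKO and WT recovered 8%, 52%, 80% and 72%, with 6. Changes were placed in Head DKO alone, on genes above a minimum expected count, and no other group difference was simulated. The recovery therefore does not cover genes of low count.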

Additional observations from a re-analysis of the deposited data

Results flagged for a closer look

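These genes stand here because a test of the difference itself (edgeR's interaction term, Benjamini-Hochberg adjusted over all genes) separated the Head minus Tail difference of DKO from that of Gpr161 KO. In all, 57 genes passed, and the adjusted p of those named runs from 0.00104 for Sp8 to 0.0438 for Myl4. Gpr161 KO library 1 held Y-linked transcripts and library 2 held Xist at both ends, unlike the DKO libraries, and the part of this in the differences was not tested.

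Shifted toward Head in DKO relative to Gpr161 KO, on the log2 scale, were the midbrain-hindbrain genes Hes3 by 5.84 and Fgf17 by 5.41. The hormone gene Trh shifted by 5.37 and Evx1 by 5.21. Sp8 (3.41), Rspo3 (2.38), Wnt7a (2.17) and the FGF feedback gene Il17rd (1.89) moved the same way.

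Shifted toward Tail relative to Gpr161 KO were genes of heart and other striated muscle. They were Myl4 by -9.67, Myh6 by -8.55, Alpk2 by -7.33, Myl7 by -7.15, Asb2 by -7.13, Ryr2 by -4.64 and Des by -2.94. The summed level of 22 cardiomyocyte genes was 2872 and 611 CPM in Head and 53.4 and 47.3 CPM in Tail of Gpr161 KO. In DKO it was 46.9 and 12.8 CPM in Head and 101 and 108 CPM in Tail, and in Head WT 13.3 and 16.4 CPM. The neural crest genes Sox10 and Foxd3 shifted by -3.51 and -2.93. Tbx20 shifted by -4.34, Foxl1 by -3.59, Sim1 by -3.24, Slit2 by -2.59, Tgfb2 by -1.81 and Sulf1 by -1.51.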

How the results depend on the processing

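The pairing of libraries by number raised the counts. With the replicate block within genotype, 3638 genes were called between Head and Tail DKO and 2007 in WT (1499 and 802 without it), and the regional difference of DKO differed from that of WT, Fuz KO and Gpr161 KO in 19, 3 and 503 genes (0, 0 and 57 without it). Of 143 named genes called between Head and Tail DKO, 137 were called with the block as well. With no filter on low counts, the counts were 2305 for DKO, 1688 for WT and 144, 30 and 626 for the differences from WT, Fuz KO and Gpr161 KO. DESeq2 gave 1356 for WT, and 11 and 344 for the differences from WT and Gpr161 KO. A fit on the compared groups only gave 4 for the difference from WT. The cause of these moves was not tested.

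Leaving out 1 library gave 571 to 908 genes for DKO (lowest without Tail DKO 2), 308 to 644 for WT, 0 to 1 for the difference from Fuz KO and 11 to 73 for that from Gpr161 KO. Without both DKO libraries of number 1 or number 2, 319 and 240 genes were called between Head and Tail and 4 in each case for the difference from Gpr161 KO. Of the 143 named genes, 93 kept their call without each DKO library in turn, and no called gene reversed. RLE scaling kept all 143 calls. With 2 libraries a group, a small difference can be missed.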

Other observations

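Cartilage, crest and proximodistal homeobox genes of the DKO add to the regional picture. Their counts stand beside 4.11% of all genes called higher in Head and 2.93% in Tail. Of 13 Meis, Pbx and Irx factors, 4 rose in Head and 1 in Tail (3 and 1, 4 and 1, 2 and 1, and 2 and 1 without Head 1, Head 2, Tail 1 and Tail 2; 7 and 3 with the number block). Irx1, a homeobox factor of midbrain and hindbrain, was at 55.8 and 37.7 CPM in Head and 7.11 and 3.56 CPM in Tail, and Irx2 at 50.5 and 44.2 CPM against 9.86 and 7.56 CPM, so both were higher in Head in each library. Meis1, a Hox cofactor, went the other way, at 67.1 and 59.8 CPM in Head and 155 and 151 CPM in Tail (log2 -1.27 ± 0.13, edgeR adjusted p = 6.95e-05).

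Of 15 sclerotome and cartilage genes, 4 rose in Head and 2 in Tail (1 and 1 without Head 1, Head 2 or Tail 2, and 3 and 1 without Tail 1). Col2a1, the cartilage and notochord collagen, was at 437 and 419.6 CPM in Head and 145 and 111 CPM in Tail, so both Head libraries lay above both Tail libraries. Of 13 neural crest and glia genes, 3 rose in Head and 1 in Tail, and at most 1 was called in each direction without 1 library in turn. Fabp7, a glial and radial glial lipid-binding protein, was at 87.1 and 138 CPM in Head and 12.8 and 20.03 CPM in Tail, a call lost without Head 2, Tail 1 or Tail 2 (edgeR adjusted p = 0.0748 to 0.110).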
